A study of Homo sapiens with 6 samples.

Results

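The genes described are 10 early response genes of HepG2 cells, an established line from a human liver cancer: EGR1, EGR2 and EGR3, IER2, IER3 and IER5, SRF, and ZFP36, ZFP36L1 and ZFP36L2. They were chosen by symbol, and all 10 matched 1 Ensembl gene each among the 60483 genes of the count tables. RNA was sequenced from cells transfected with a control siRNA or with an siRNA against FTO, a demethylase that removes N6-methyladenosine from RNA, with the genes regulated by FTO in hepatocellular carcinoma as the question. There were 3 libraries of control siRNA and 3 of FTO siRNA, with replicate numbers 1 to 3, all from cells grown in medium with serum. The sources used here do not give the siRNA sequence, its dose or the time between transfection and harvest. The labels do not say whether the replicates are separate cultures, so p-values measure only the spread among these samples, and that spread may be technical.

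Early response genes are transcribed within minutes of a growth factor, a cytokine or a stress, without new protein synthesis. SRF, the serum response factor, is one of the transcription factors that turns many of them on: it binds the CArG box, a short A/T-rich element, together with ternary complex factors of the ELK family or with actin-sensing MRTF cofactors. The EGR proteins are zinc finger transcription factors made in that first wave, the IER proteins are small regulators of survival and transcription, and the ZFP36 proteins bind AU-rich elements in the 3′ untranslated region of mRNAs and bring the deadenylation machinery to them. In hepatocytes these genes are known for their induction by mitogens and during liver regeneration.

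The CArG box is the element through which SRF acts, so the promoters of these genes that carry it are shown. Promoter entries in RefSeq (GRCh38.p14) were found for 7 of the 10 genes, with 11 start sites in all; EGR3, IER3 and ZFP36L2 had none. In the 250 bases before the start, a CArG box was found at 1 start each of EGR1, EGR2 and SRF, and at 2 positions in EGR1 and in SRF. Of all 35116 promoter windows of that length, 1.16% held a CArG box on either strand and 0.0313% held 2 or more. The windows are printed 5′ to 3′ on the gene's strand with the CArG boxes in capitals. They lie at chr5:138465229-138465478 for EGR1 on the plus strand, at chr10:62816367-62816616 for EGR2 on the minus strand and at chr6:43171019-43171268 for SRF on the plus strand.
EGR1: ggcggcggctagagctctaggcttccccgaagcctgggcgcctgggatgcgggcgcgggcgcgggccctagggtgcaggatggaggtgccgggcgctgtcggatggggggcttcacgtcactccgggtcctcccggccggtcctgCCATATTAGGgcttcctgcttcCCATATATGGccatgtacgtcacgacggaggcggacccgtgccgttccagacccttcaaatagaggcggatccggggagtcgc
EGR2: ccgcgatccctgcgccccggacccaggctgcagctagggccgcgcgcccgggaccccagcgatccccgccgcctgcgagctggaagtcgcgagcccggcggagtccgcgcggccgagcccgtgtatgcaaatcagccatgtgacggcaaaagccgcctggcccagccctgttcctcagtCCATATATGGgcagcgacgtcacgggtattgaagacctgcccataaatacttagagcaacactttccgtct
SRF: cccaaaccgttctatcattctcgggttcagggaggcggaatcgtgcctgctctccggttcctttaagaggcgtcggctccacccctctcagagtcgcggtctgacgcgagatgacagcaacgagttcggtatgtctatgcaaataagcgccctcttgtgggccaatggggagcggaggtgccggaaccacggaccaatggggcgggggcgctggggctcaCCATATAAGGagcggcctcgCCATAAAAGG
In EGR1 the boxes end 96 and 74 bases before the start, in EGR2 the box ends 62 bases before it, and in SRF the boxes end 21 bases and 1 base before it. The EGR1 window also held the 9-base EGR site GCGNGGGCG once, as did that of SRF, against 8.41% of all windows. The full cAMP response element TGACGTCA was found at 1 of the 11 starts, in ZFP36L1, against 1.65% of all windows. Both strands were searched, and a match is a run of letters, not evidence of binding.

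The other shared sequence lies at the opposite end of the transcript. In the longest GENCODE 29 transcript with an annotated stop codon, the AU-rich heptamer TATTTAT, which the ZFP36 proteins are known to bind, occurred in the 3′ untranslated region of 6 of the 10 genes. Among 19233 protein-coding genes 31.1% held at least 1 copy and 6.04% held 3 or more. IER3 and IER5 held 4 copies each, ZFP36, ZFP36L1 and ZFP36L2 held 3 each and SRF held 2, while EGR1, EGR2, EGR3 and IER2 had no match. For 4 of these genes, 30 bases around the densest or first copies are shown with the heptamers in capitals.
IER3: taattaaTATTTATatgTATTTATgtacgt
IER5: tcttccttTATTTATTTATTTATttaatta
ZFP36: ccttTATTTATgacgacttTATTTATtcta
ZFP36L2: aactatttaactTATTTATtatcttgtgaa
In IER5 the 3 copies of this window overlap in 1 run. The pentamer ATTTA was present in 9 of the 10 genes, with IER2 the exception, and in 67.5% of the protein-coding genes. Per kilobase of 3′ untranslated region, 6 of the 10 genes held more than the median of all, 1.44.

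The targeted gene was checked first. FTO had 40.8, 37.96 and 38.8 CPM (counts scaled to TMM-adjusted library size) in controls 1, 2 and 3 and 11.2, 14.5 and 5.21 CPM in FTO siRNA 1, 2 and 3, or 26.3% of the control mean. Total counts per library lay between 15713279 and 18390953, so 3 counts correspond to 0.153 to 0.190 CPM. FTO siRNA 3 stood apart on the second principal component, at 52.7 against -40.1 and -22.7 for FTO siRNA 1 and 2. The liver markers were present: all 8 listed hepatocyte genes were tested, none passed, each had a negative log2 fold change (median -0.36), and their summed level was 22659 to 32626 CPM in the controls and 15448 to 27575 CPM after FTO siRNA. Of 12 immune cell markers, 10 had enough counts to test and 6 rose, against 7.53% of all genes tested. The sum of the 12 went from 128 to 190 CPM in the controls to 183 to 213 CPM, most of it LCP1 and LYZ, which the controls expressed too. The pan-leukocyte marker PTPRC went from 2 to 60 counts over 3 libraries, while SRGN and MS4A1 had no count in any control and 73 and 8 after FTO siRNA. Markers with so few control counts could pass the filter on low counts only through the FTO siRNA libraries. The count of 6 therefore cannot be read as an excess over all genes tested. Of 8 fibroblast markers 6 were tested and 3 rose, with sums of 99.8 to 190 CPM and 248 to 600.02 CPM, and DCN and THY1 had no count in any control. One of 5 endothelial markers was tested and did not pass. The hepatocyte and immune sums overlapped between the groups, while the fibroblast sums did not. Beside the signs of the hepatocyte genes, 53.5% of all genes tested had a positive log2 fold change. The part of these markers in the results below was not tested. In such bulk RNA, fewer cells of a type and less RNA per cell cannot be told apart.

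After FTO siRNA, 5 of the 10 early response genes rose (EGR1, EGR2, IER3, IER5 and ZFP36), 1 fell (ZFP36L2), 3 did not pass the test (IER2, SRF and ZFP36L1) and EGR3 had too few counts to be tested. The test was edgeR's quasi-likelihood test over 15025 genes with a Benjamini-Hochberg adjusted p under 0.05. EGR2 entered it only through its counts in the FTO siRNA libraries. Of all tested genes 7.53% were called higher and 3.83% lower. The median log2 fold change of the 9 tested genes was 0.87, against 0.04 over all genes tested. In all 10 genes the 3 values of one group lay outside those of the other, 9 higher and 1 lower with FTO siRNA. Over all tested genes, which leave out EGR3, 36.5% showed no overlap, 19.2% higher and 17.4% lower. The like group here is the 9 tested genes, and of these EGR2 had few control counts. The calls rest on 3 controls: without control 1 only IER3 of these genes was called, at 2.11% of all genes, and without control 2 only EGR1 and EGR2, at 2.52%. Without FTO siRNA 3 all 9 tested genes were called, 8 higher and 1 lower, at 30% of all genes.

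**Figure D1:**
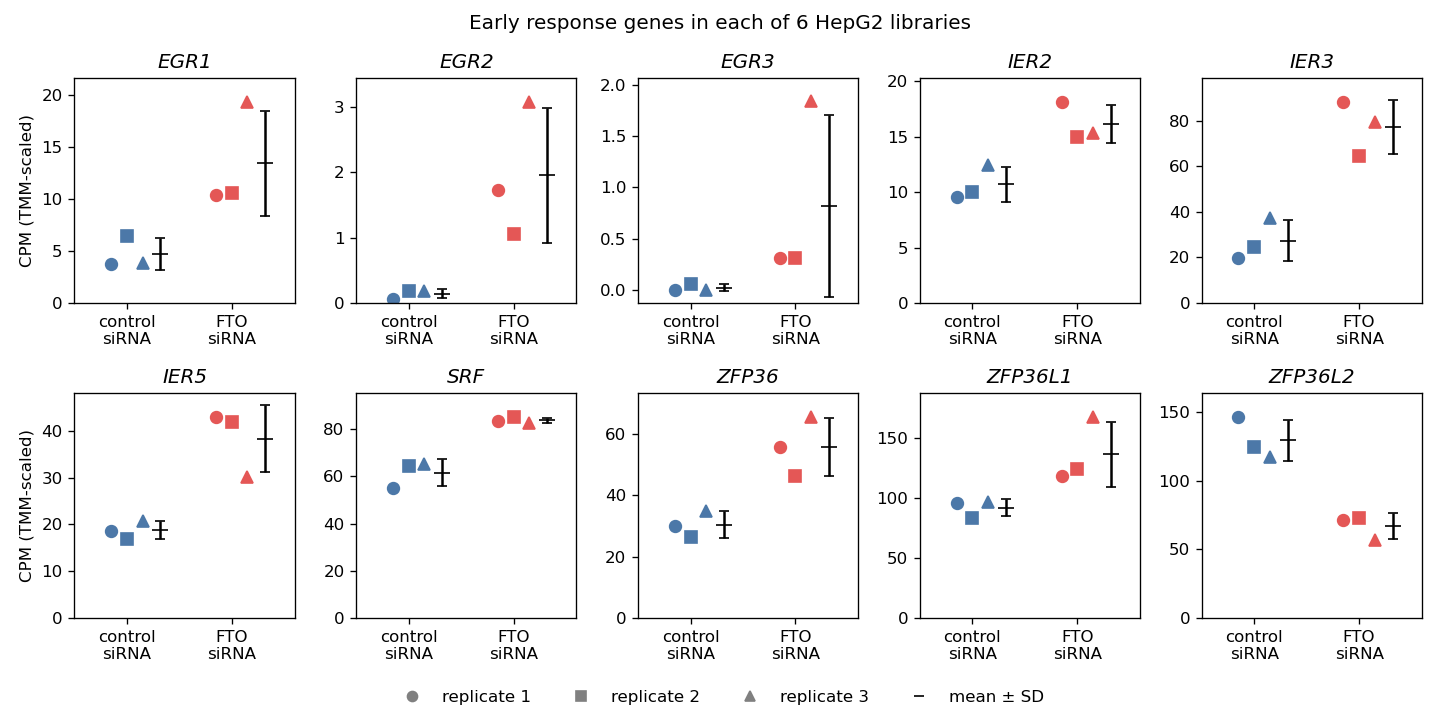
CPM of each gene (vertical axis, linear, 1 panel per gene) in the control siRNA and FTO siRNA libraries, with 1 symbol per replicate number and the mean ± SD of 3 libraries in black. The FTO siRNA points lie above all control points in every panel but that of ZFP36L2, where they lie below.

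EGR1, the zinc finger factor that most mitogens induce, had 3.74, 6.46 and 3.86 CPM in the controls and 10.4, 10.6 and 19.3 CPM in FTO siRNA 1, 2 and 3. Every FTO siRNA library exceeded every control, and FTO siRNA 3 was the highest. The mean went from 4.69 ± 1.54 to 13.4 ± 5.08 CPM (SD, n = 3), a log2 fold change of 1.52 ± 0.33 (SE; edgeR quasi-likelihood test, adjusted p = 0.0226). The call was lost without control 1 (adjusted p = 0.117) and without control 3 (adjusted p = 0.0921).

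EGR2, which drives myelination in Schwann cells and restrains T cell activation, was nearly absent from the controls. It had 1, 3 and 3 counts there, at most 0.183 CPM, and 28, 17 and 60 counts after FTO siRNA, or 1.74, 1.05 and 3.07 CPM. The groups were separate, with FTO siRNA 3 again the highest. With 7 counts over all controls and 105 over all FTO siRNA libraries, the ratio per total count was 14.2 (95% counting interval 6.65 to 36.1), and 9.43 without FTO siRNA 3. Its control counts did not exceed the floor of 3, so it passed the filter on low counts only through the FTO siRNA libraries. The fitted log2 fold change was 3.72 ± 0.61 (adjusted p = 0.0083), the largest of the 9 tested genes, and the call was lost without control 1 (adjusted p = 0.0589).

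EGR3, a close relative of EGR2, had 0, 1 and 0 counts in the controls and 5, 5 and 36 in FTO siRNA 1, 2 and 3. It did not pass the filter on low counts, and 36 of its 46 counts after FTO siRNA came from 1 library. The ratio per total count was 43.5 (95% counting interval 7.43 to 1755), and 14.7 (2.09 to 637) without FTO siRNA 3. Fitted without the filter over 33571 genes, it had an adjusted p of 0.031 (edgeR quasi-likelihood test). That value rests on the same few counts and adds no separate support. An unnamed gene on the opposite strand overlaps its exons in GENCODE 29, and the sources used here do not say whether the counting used strand.

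The makeup of the EGR family was compared as well as its level. EGR1 held 98.3%, 96.4% and 95.5% of the summed EGR counts in controls 1, 2 and 3 and 83.6%, 88.7% and 79.7% in the FTO siRNA libraries. EGR2 went from 2.96% ± 1.42 to 11.8% ± 2.69 (SD, n = 3) and EGR3 from 0.303% ± 0.525 to 4.22% ± 2.92. The groups did not overlap for any of the 3 shares (exact permutation test, two-sided p = 0.1, the smallest that 3 against 3 allows; 0.113 adjusted over the 9 shares compared in 3 families). The 3 shares of a family add up to the whole, so they are not 3 separate tests. EGR1's share fell although its CPM rose. Counting error is wide here: EGR2's share in control 1 had an exact binomial 95% interval of 0.0422% to 8.94%.

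IER3, a regulator of apoptosis that NF-kB and p53 are known to induce, rose the most of the IER genes in CPM. It had 19.9, 24.8 and 37.3 CPM in controls 1, 2 and 3 and 88.002, 64.7 and 79.2 CPM after FTO siRNA. Each FTO siRNA library was well above the highest control, control 3. The mean went from 27.3 ± 8.95 to 77.3 ± 11.8 CPM (SD, n = 3), a log2 fold change of 1.5 ± 0.24 (edgeR adjusted p = 0.00863), lost only without control 2 (adjusted p = 0.055). The antisense gene IER3-AS1 overlaps its exons on the opposite strand.

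IER5, which activates the heat shock factor HSF1, had 18.5, 16.9 and 20.8 CPM in the controls and 42.8, 41.9 and 30.1 CPM after FTO siRNA. Here FTO siRNA 3 was the lowest of its group, unlike for the EGR genes, and the groups did not overlap. The log2 fold change was 1.03 ± 0.19 (edgeR adjusted p = 0.0123), and the call was lost without control 1 or control 2 (adjusted p = 0.0748 and 0.076).

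IER2, a nuclear protein of the first transcriptional wave, had 9.57, 10.1 and 12.5 CPM in the controls and 18.1, 14.9 and 15.4 CPM after FTO siRNA. All 3 FTO siRNA values were above all controls, but the log2 fold change of 0.59 ± 0.19 did not pass (edgeR adjusted p = 0.0754, range 0.0276 to 0.2996 over 14 alternatives). It passed without FTO siRNA 3. Another gene overlaps its exons on the opposite strand.

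Within the IER family the share of IER2 was 19.95%, 19.4% and 17.7% in the controls and 12.2%, 12.3% and 12.3% after FTO siRNA. The share of IER3 went from 47.4% ± 5.67 to 58.6% ± 5.19 (SD, n = 3). Neither share overlapped between groups (exact permutation test, two-sided p = 0.1 each, 0.113 adjusted). The share of IER5 did overlap, at 33.6% ± 4.60 and 29.1% ± 5.20 (exact permutation test, p = 0.4). As parts of a whole, these shares are tied to each other.

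SRF itself had the log2 fold change nearest to 0 of the 9 tested genes. Its level was 55.2, 64.4 and 65.2 CPM in the controls and 83.5, 84.9 and 82.7 CPM after FTO siRNA. The FTO siRNA libraries lay within a narrow band above every control, with means of 61.6 ± 5.57 and 83.7 ± 1.14 CPM (SD, n = 3). The log2 fold change of 0.44 ± 0.13 did not pass (edgeR adjusted p = 0.0673, range 0.023 to 0.327 over 14 alternatives). It passed without FTO siRNA 3 and with upper quartile scaling (adjusted p = 0.0464).

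**Figure D2:**
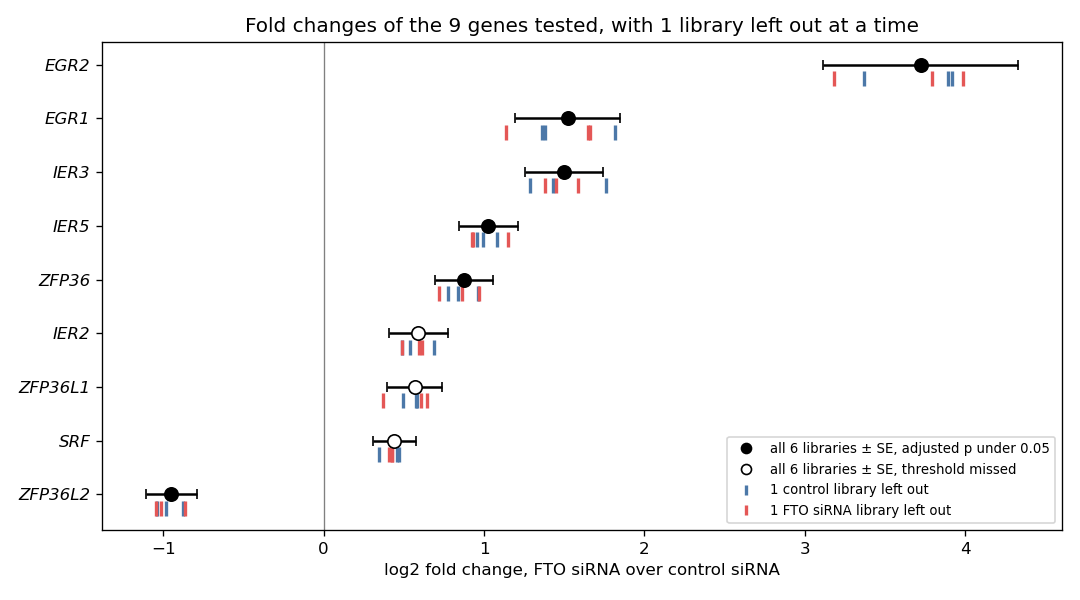
Log2 fold changes (horizontal axis) of the 9 genes tested, as circles with standard errors from all 6 libraries, filled where the adjusted p is under 0.05. Ticks below each circle are the values with 1 library left out, blue for a control and red for an FTO siRNA library, and none crosses 0.

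Within the ZFP36 family 1 gene rose and 1 fell. ZFP36, also called tristetraprolin and the family's inducible member, had 29.8, 26.4 and 35.02 CPM in the controls and 55.7, 46.3 and 65.3 CPM after FTO siRNA. The groups were separate, and the log2 fold change was 0.87 ± 0.18 (edgeR adjusted p = 0.0193). ZFP36L2, known for its part in blood stem cells and lymphocyte development, had 146, 125 and 117 CPM in the controls and 71.6, 73.1 and 56.6 CPM after FTO siRNA. Every FTO siRNA library lay below every control, and the mean came to 51.8% of the control mean. Its log2 fold change was -0.95 ± 0.16 (edgeR adjusted p = 0.0102). Both calls were lost without control 1 (adjusted p = 0.11 for ZFP36 and 0.0594 for ZFP36L2) and without control 2 (0.109 and 0.0537).

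ZFP36L1, the most abundant of the family after FTO siRNA, had 95.99, 83.5 and 96.3 CPM in the controls and 118, 124 and 167 CPM after FTO siRNA. All 3 FTO siRNA values were above the controls, with FTO siRNA 3 the highest. The log2 fold change of 0.57 ± 0.17 did not pass (edgeR adjusted p = 0.0663, range 0.0344 to 0.257 over 14 alternatives). It passed without FTO siRNA 3, although its log2 fold change was then 0.37, and with DESeq2 (adjusted p = 0.0412).

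The summed level of the family overlapped between the groups. It was 272, 235 and 249 CPM in the controls and 245, 243 and 289 CPM after FTO siRNA. Its makeup did not overlap: ZFP36L2 held 53.7%, 53.2% and 47.2% of the family's counts in the controls and 29.2%, 30.1% and 19.6% after FTO siRNA. ZFP36L1 went from 36.5% ± 1.90 to 52.3% ± 5.00 and ZFP36 from 12.1% ± 1.72 to 21.5% ± 2.10 (SD, n = 3). None of the 3 shares overlapped between the groups (exact permutation test, two-sided p = 0.1 each, the smallest possible; 0.113 adjusted). Here too the shares add up to the whole, so a lower share of ZFP36L2 raises the others together. The exact binomial 95% interval of ZFP36L2's share was 45.7% to 48.8% in control 3, the lowest control, and 28.6% to 31.5% in FTO siRNA 2, the highest of its group. With counts per kilobase of transcript in place of counts, its difference was -23.2 percentage points in place of -25.1.

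**Figure D3:**
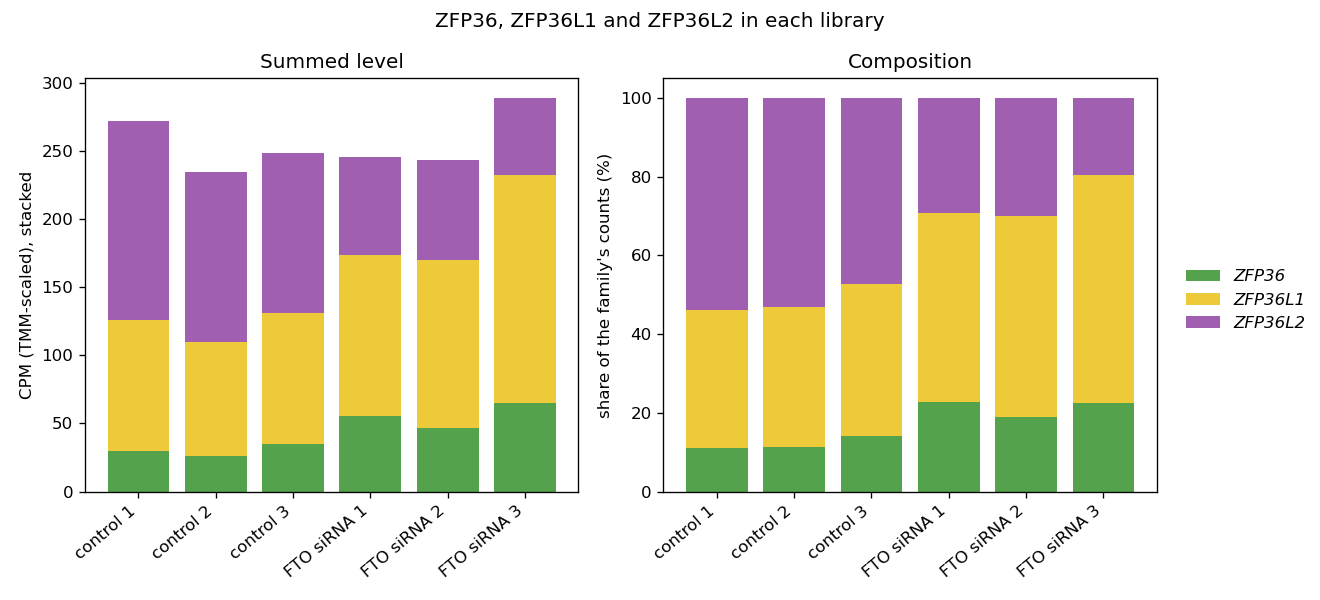
Stacked CPM (left) and shares of the family's counts in percent (right) of ZFP36, ZFP36L1 and ZFP36L2 in each of the 6 libraries. The stacks are of like height, 235 to 289 CPM, while the ZFP36L2 part is smaller in each FTO siRNA library than in each control.

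The order of the 10 genes by level was taken per length. In CPM per kilobase of the longest transcript, the control order was ZFP36L2 (35.04 ± 4.05, SD, n = 3), ZFP36L1 (28.8 ± 2.29), IER3 (20.2 ± 6.63), ZFP36 (17.03 ± 2.43), SRF (14.7 ± 1.32), IER5 (4.48 ± 0.468), IER2 (3.65 ± 0.535), EGR1 (1.49 ± 0.489), EGR2 (0.048 ± 0.0231) and EGR3 (0.00468 ± 0.00811). Neighbours from ZFP36L1 down to SRF overlapped in their library values, as did IER5 and IER2. After FTO siRNA IER3 was first (57.3 ± 8.73 CPM per kilobase), overlapping ZFP36L1 (42.7 ± 8.39). ZFP36 followed (31.2 ± 5.33), then SRF (19.9 ± 0.272) and ZFP36L2 (18.2 ± 2.48), which overlapped. IER5 (9.14 ± 1.70), IER2 (5.50 ± 0.582) and EGR1 (4.29 ± 1.62) came next, the last pair overlapping, and EGR2 (0.657 ± 0.345) and EGR3 (0.189 ± 0.204) overlapped at the end.

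The 10 genes did not share 1 profile. Among the 9 tested genes, the profiles of log2 CPM over the 6 libraries, each centred on its mean, were nearest for IER2 and SRF, with a root mean square difference of 0.143, and for ZFP36 and ZFP36L1, at 0.201. They were farthest for EGR2 and ZFP36L2, at 2.02. Outside the set, among 9365 genes with a mean of at least 10 CPM, those nearest to EGR1 were DDR1 (0.138), LGALS3BP (0.143) and CPT1A (0.182). COQ10B (0.0404), ELOVL1 (0.0559) and BUD31 (0.0571) were nearest to IER2, ZNF473 (0.0446), PERP (0.0506) and YIPF5 (0.0531) to SRF, and STK10 (0.0603), IFNGR2 (0.0718) and EPB41L1 (0.0857) to ZFP36.

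Upstream of these genes lies the MAP kinase pathway. Over all genes tested 7.53% were called higher and 3.83% lower. Of 15 pathway genes from EGFR to the RSK kinases 1 fell and 14 did not pass. The median log2 fold change of the 15 was -0.07. The one that fell was RPS6KA3, which encodes a kinase activated by ERK, from 1540.1 ± 244 to 775 ± 105 CPM (edgeR adjusted p = 0.0204). Its call was lost without control 1, control 2 or FTO siRNA 1. Without FTO siRNA 3 the list had 3 higher and 3 lower, with 30% of all genes called. Among 5 SRF cofactors 2 rose: ELK3, a ternary complex factor, from 16.5 ± 0.398 to 30.1 ± 1.49 CPM (adjusted p = 0.00951), and MRTFA, which carries the actin signal to SRF, from 50.5 ± 8.19 to 86.96 ± 12.8 CPM (adjusted p = 0.0262). Without control 1 or control 2 none of the 5 was called, without control 3 or FTO siRNA 2 only 1, and without FTO siRNA 3 another was called lower. Of the EGR corepressors, NAB2, itself an EGR target, rose from 16.5 ± 2.84 to 32.4 ± 3.72 CPM (adjusted p = 0.0138; lost without any 1 control), while NAB1 had 37.5 ± 2.73 and 28.1 ± 6.60 CPM (adjusted p = 0.207) and was called lower only without FTO siRNA 3. EGR4 and WT1 had no count in any control and 1 and 4 counts after FTO siRNA.

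Beside them, 17 of 29 tested genes of the other early response families rose, against 7.53% of all genes tested. The other 12 did not pass, and the median log2 fold change of the 29 was 1.27. The lists were chosen with earlier results of these data known, so their shares are no test against all genes. The 3 smallest p-values were those of the phosphatase gene DUSP5 (1.37 ± 0.18), of FOS (2.08 ± 0.28) and of KLF4 (2.80 ± 0.39), all log2 fold changes ± SE. The count of 17 was 5 without control 1, 7 without control 2, 11 without control 3 and 19 without FTO siRNA 3. In these settings 2.11%, 2.52%, 4.93% and 30% of all genes were called. Known SRF targets of the cytoskeleton and matrix were positive in all 15 tested, but only 3 rose: CNN1, an actin-binding calponin, from 4.77 ± 2.80 to 48.9 ± 21.2 CPM (edgeR adjusted p = 0.00579), the LIM protein gene FHL2 from 16.9 ± 7.41 to 47.8 ± 10.8 CPM (adjusted p = 0.0204) and TAGLN from 60.3 ± 28.8 to 279 ± 187 CPM (adjusted p = 0.0392). TAGLN, also in the fibroblast list, overlapped between the groups. The median of the 15 was 0.74, with values from 0.12 for FLNA to 3.35 for CNN1. Over all genes tested 53.5% had a positive log2 fold change. Only 5 of the 15 were higher with no overlap between the groups, against 19.2% of all genes tested. The count of 3 was 1 when FTO siRNA 1, FTO siRNA 2, control 1 or control 2 was left out. It was 9 without FTO siRNA 3, where 30% of all genes were called.

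Downstream of the ZFP36 proteins, 12 of 16 tested AU-rich mRNAs known as their targets rose, against 7.53% of all genes tested. The other 4 did not pass, and the median log2 fold change of the 16 was 1.39. IER3 is one of the 12 and also one of the genes described here. This list too was chosen with earlier results of these data known, so its share is no test against all genes. The cytokine gene TNF had a log2 fold change of 2.31 ± 0.28 (edgeR adjusted p = 0.00337), and LIF, another, went from 1.94 ± 0.784 to 18.7 ± 8.49 CPM (adjusted p = 0.00359). The count of 12 was 6 without control 1 or control 2 and 7 without control 3. Without these controls 2.11%, 2.52% and 4.93% of all genes were called. CSF2 and PTGS2 had no count in any control and 4 and 6 counts after FTO siRNA.

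Of 17 genes of the deadenylation and decapping machinery that ZFP36 proteins recruit, none rose, 2 fell and 15 did not pass, with a median of -0.08. Over all genes tested 7.53% were called higher and 3.83% lower. The decapping enzyme gene DCP2 went from 65.9 ± 3.62 to 36.6 ± 2.91 CPM (edgeR adjusted p = 0.0087) and the deadenylase gene CNOT6 from 97.2 ± 10.1 to 64.3 ± 7.81 CPM (adjusted p = 0.0404). The count of 2 was 1 without control 1, control 3 or FTO siRNA 1 and 0 without control 2. It was 7 without FTO siRNA 3, where 30% of all genes were called. Of 8 other proteins that bind AU-rich elements or stem-loops, 1 rose: ZC3H12A, an endonuclease of inflammatory mRNAs, from 53.98 ± 6.56 to 95.8 ± 19.3 CPM (adjusted p = 0.0241), a call lost without any 1 library other than FTO siRNA 3. Without FTO siRNA 3 the list had 1 higher and 1 lower. The other 7 did not pass, and all 7 had negative log2 fold changes. Over all genes tested 53.5% had a positive one.

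**Figure D4:**
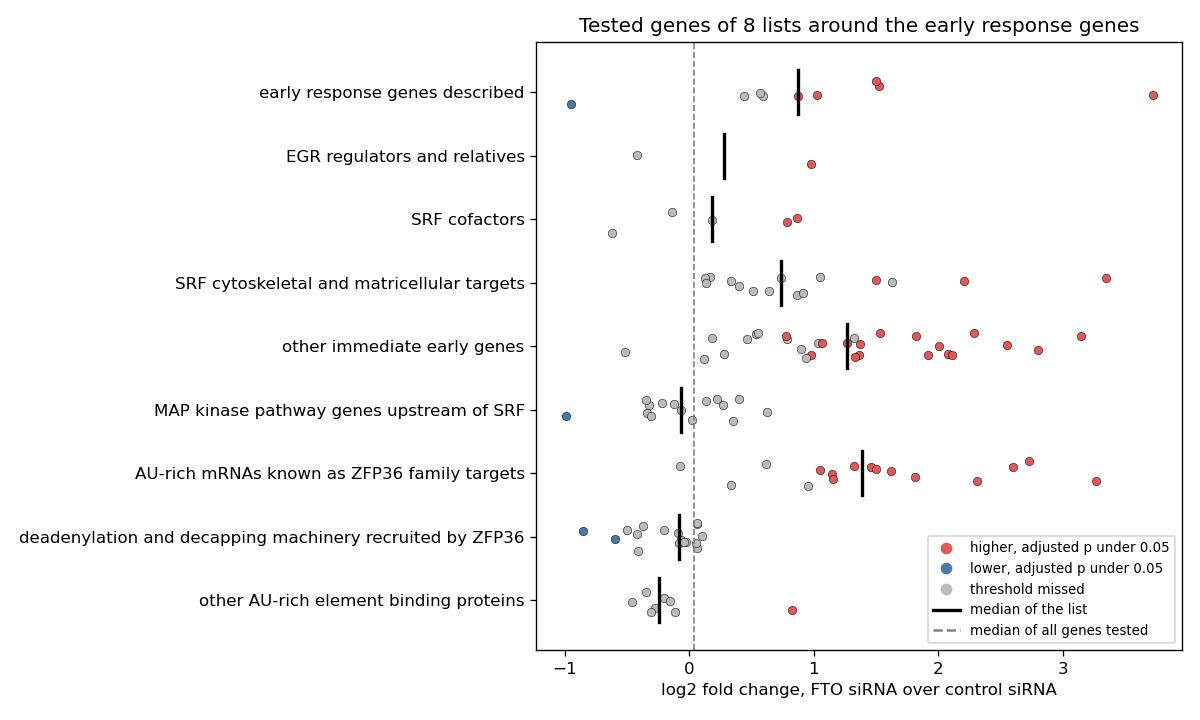
Log2 fold changes (horizontal axis) of the 9 early response genes and of the tested genes of 8 lists around them, 1 point per gene, red or blue where called higher or lower. The black bars are list medians, from -0.24 for the other binders of AU-rich elements to 1.39 for the AU-rich targets, and the dashed line is the median of all genes tested, 0.04.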

How the data were processed

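Total RNA of HepG2 cells was sequenced in 3 control siRNA and 3 FTO siRNA libraries, grouped and numbered by their titles. The authors deposited raw counts per Ensembl gene, 1 table per library. Per the submitters' processing notes, which give no roles, the tools included TopHat2 2.0.11, TopHat and HTSeq, and the builds GRCh37 and hg19. The sources used here do not give strand or multi-mapping settings.

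The counts were filtered with filterByExpr, scaled by TMM and tested with edgeR 4.0.16 in R 4.3.3 (glmQLFit with legacy=FALSE, glmQLFTest, group only, two-sided), with Benjamini-Hochberg adjustment over 15025 genes and a threshold of 0.05. CPM use TMM-scaled library sizes. The standard error is the log2 fold change over the square root of F. A count of 3 per library, between 0.153 and 0.190 CPM, is the floor, and floors and intervals (exact, 95%) cover counting error only. No 2 libraries agreed within sampling noise (chi-square over degrees of freedom at least 8.45). The value was 118 for FTO siRNA 1 and 3, 82.6 for FTO siRNA 2 and 3 and 20.4 for FTO siRNA 1 and 2. Pairs of a control and an FTO siRNA library gave 28.2 to 97.5. On data simulated for this comparison over 15025 genes, the share called was 4.48% at a 1.5-fold change, 35.8% at 2-fold and 86.4% at 4-fold, and 8 of 92 calls were unchanged genes.

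Symbols came from a gene name table (56321 of 60483 identifiers), lengths from GENCODE 29. At most 0.242% of the 50-base words of any of the 10 transcripts occurred in another gene. Coordinates are those of the promoter table's build. The genes, the lists and the tests were chosen with earlier results of these data known. Named genes are the 10 described, FTO, up to 3 past the threshold (or 2 otherwise) per list by p-value, and the 3 nearest to EGR1, IER2, SRF and ZFP36; single markers, the genes with no control count and genes outside this rule were named after their values were seen. A gene that this rule names is not reported here. Alternatives were RLE, upper quartile and no scaling factors, 2 other filters, DESeq2 1.42.0, limma-voom (limma 3.58.1), the replicate number as a block, counts per kilobase for shares, and each library left out.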

Additional observations from a re-analysis of the deposited data

How the results depend on the processing

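Every log2 fold change of the 9 tested genes and of FTO kept its sign in all 14 alternatives. Of the genes described, 5 higher and 1 lower were called with RLE, no factors, at least 1 CPM in 3 libraries, limma-voom and the replicate block. With 1 library left out the counts ran from 1 to 8 higher and from 0 to 1 lower. Over all genes they ran from 236 to 2430 higher and from 94 to 2152 lower, with 1132 and 575 in the complete data. The replicate block gave 736 and 305, and DESeq2 1480 and 1029. Same-numbered deviations from the group means correlated at -0.138, -0.0643 and -0.248. The deviations of the 3 libraries of a group are tied to each other, so these values cannot decide whether the replicate numbers pair the libraries. The block changed no call of the 10 genes. The block left 0 of the MAP kinase genes, 1 of the decay machinery and 0 of the other AU-rich binders called. No factors and no filter each left 1 of the decay machinery, no filter called 5 SRF targets, and DESeq2 called 6 SRF targets and 1 other AU-rich binder as lower.

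With 1 library left out, the lists ranged as follows in genes called. The EGR regulators had 0 to 1 higher and 0 to 1 lower, the SRF cofactors 0 to 2 higher and 0 to 1 lower, the SRF targets 1 to 9 higher and the other early response genes 5 to 19 higher. The MAP kinase genes had 0 to 3 higher and 0 to 3 lower, the AU-rich targets 6 to 13 higher, the decay machinery 0 to 7 lower, the other AU-rich binders 0 to 1 higher and 0 to 1 lower, and the immune markers 6 to 7 higher. List counts under alternatives were added after seeing the data.

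The difference in family share, FTO siRNA minus control, was -6.76 points for IER2, 9.35 for ZFP36 and 15.8 for ZFP36L1. Per kilobase it was -5.45, 12.7 and 10.5. With 1 library left out it ranged from -15.1 to -10.6 for EGR1, 7.75 to 10.3 for EGR2, 2.23 to 4.78 for EGR3, -7.42 to -6.30 for IER2, 8.28 to 13.9 for IER3, -7.15 to -1.97 for IER5, 8.72 to 10.6 for ZFP36, 12.98 to 17.8 for ZFP36L1 and -27.2 to -21.8 for ZFP36L2. The cause of these changes was not tested. Depth limits EGR2 and EGR3, which had 7 counts and 1 count over all controls.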
